A study of Mus musculus with 53 samples.

Results

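Mouse embryonic stem (ES) cells that lack Ezh2 were compared with wild-type ES cells after 2 days without leukaemia inhibitory factor (LIF), the cytokine that holds ES cells in the undifferentiated state. The comparison used 8 of the 53 arrays of the series, chosen by their titles: 4 Ezh2-null arrays, replicates 1 to 4, and 4 wild-type arrays, of which replicates 1 and 2 were the J1 line and replicates 3 and 4 the CJ7 line. The other arrays include Eed-null cells on the same day, and wild-type, Ezh2-null and Eed-null cells at day 0 and on later days of LIF withdrawal. The day 0 wild-type arrays are of the lines J1, CJ7 and E14tg1. The rest are of differentiated cell types. Age does not apply to cultured lines, and no drug or transgene is named for either group. The sources used here do not name the line from which the Ezh2-null cells were made, nor the part of Ezh2 that was removed, so the genotype and the line cannot be told apart. The protocols state that wild-type and mutant cells were grown on feeder fibroblasts, which were depleted by letting them settle before the experiment. Total RNA was measured on Affymetrix arrays, and the titles number the arrays as biological replicates but do not say what was repeated. The p-values therefore measure only the spread between arrays within groups, and this spread is pooled over all 53 arrays, not only the 8 compared. RNA came from whole cultures, in which fewer cells of a type and less RNA per cell cannot be told apart.

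Polycomb repressive complex 2 (PRC2) silences genes by methylating lysine 27 of histone H3; Ezh2 carries out the reaction, and Eed and Suz12 are the core subunits it needs for activity. The mark is found in ES cells at the CpG-rich promoters of many developmental regulators that are silent there, while Ezh1 is a second, weaker enzyme able to take the place of Ezh2. LIF acts through the receptor chains Lifr and Il6st, the Jak kinases and Stat3 to sustain genes of the naive pluripotent state, and these decline when LIF is removed while cells move toward a primed, epiblast-like state.

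Values are the authors' deposited probe-set signals on a linear scale, with 1 probe set for each gene. A difference is given as log2 of the signal plus 32, Ezh2-null minus wild type, with its standard error (SE), taken as the mean of the difference within replicates 1 and 2 and the difference within replicates 3 and 4. These replicates form a first and a second array set, since the levels of many probe sets separate them. The sets are inferred from the signals, as no label names them. At day 6, wild-type and Ezh2-null replicates 1 and 2 were placed in the first set and replicates 3 to 5 in the second. The wild-type line changes with the set at day 2, so line and set cannot be told apart there. Adjusted p-values come from limma with Benjamini-Hochberg adjustment over the 13807 genes tested, a gene that "rose" or "fell" had an adjusted p under 0.05, and a gene is "called" where the difference was also at least 2-fold. The median signal of the 8 arrays ran from 51.3 to 58.3.

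A pair of Ezh2-null arrays stood apart from the others. The Y-linked gene Eif2s3y, a translation factor subunit, read 520.5, 483.1, 284.5 and 276.6 in wild-type replicates 1 to 4 and 588.9, 539.6, 15 and 9.2 in Ezh2-null replicates 1 to 4. Y-linked Uty, a histone demethylase homologue, read 13.6 and 12.8 in Ezh2-null replicates 3 and 4 and 64.4 to 164.7 in the other 6 arrays. Both Y-linked genes were therefore low in Ezh2-null replicates 3 and 4 only among these 8 arrays. The imprinted gene Nnat went the other way: it read 20.5 and 26.7 in Ezh2-null replicates 1 and 2, against 460.8 to 841.7 in the other 6. Because both arrays with low Y-linked signal lie in the second set, the value of the first set given beside a gene is its value without them; the part of these features in the differences below was not tested.

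Ezh2 itself read 748.7, 828.9, 792.0 and 774.0 in wild-type replicates 1 to 4 and 155.5, 159.8, 129.6 and 98.8 in Ezh2-null replicates 1 to 4. It was lower in all 4 Ezh2-null arrays and fell by 2.30 ± 0.10 on the log2 scale (SE, n = 4 and 4; limma adjusted p = 1.42e-20), which goes with the labels. Of the 12 PRC2 genes tested, Ezh2 fell and Epop, an accessory subunit, rose by 0.73 ± 0.20 (adjusted p = 0.017). Epop differed by 0.18 in the first set and 1.29 in the second, its groups overlapped, and it did not pass without any one of wild-type replicates 1 to 4 or Ezh2-null replicates 1 or 4 (adjusted p 0.05 to 0.0648). The other core subunits did not pass: Eed differed by 0.22 ± 0.11 (adjusted p = 0.235), Suz12 by 0.20 ± 0.13 (0.46) and Ezh1 by 0.12 ± 0.10 (0.574).

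Among the 13807 genes, 23 were called higher in Ezh2-null cells (0.167%) and 3 lower (0.0217%), Ezh2 included. Without the fold minimum, 510 rose (3.69%) and 406 fell (2.94%), so most differences were under 2-fold. The median difference over all genes was 0.02. Centring each array on its median turned the split of these smaller differences to 397 higher and 538 lower, and quantile normalisation gave 505 and 640. Of the 23 genes called higher, 19 had no overlap between the 4 arrays of each group, beside 2.74% of all genes. All 23 were above 0 in both array sets, beside 4311 of all 13807 genes. Because the 23 were chosen by their difference in these same 8 arrays, both counts follow in part from that choice. The 23 genes were called in both sets in 7 cases, in the first alone in 4, in the second alone in 10 and in neither in 2. The call counts without any 1 of the 8 arrays ran from 22 to 30.

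Promoters of 4 of the called genes are shown because they differ widely in CpG content and belong to genes of different roles: Zic1, a neural zinc-finger factor, Tfcp2l1, a naive pluripotency factor, Cdkn2b, a cell cycle inhibitor, and Actc1, cardiac actin. Each is the 250 bases before the transcription start, 5′ to 3′ on the strand of the gene, from RefSeq on GRCm38.p6, with every CG in capitals.
Zic1, chr9:91365769-91366018, minus strand: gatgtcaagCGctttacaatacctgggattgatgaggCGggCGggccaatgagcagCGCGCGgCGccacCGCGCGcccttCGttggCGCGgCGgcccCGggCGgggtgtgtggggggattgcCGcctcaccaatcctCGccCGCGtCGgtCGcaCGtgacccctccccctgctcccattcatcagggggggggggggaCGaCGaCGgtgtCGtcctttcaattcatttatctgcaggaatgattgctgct
Tfcp2l1, chr1:118627695-118627944, plus strand: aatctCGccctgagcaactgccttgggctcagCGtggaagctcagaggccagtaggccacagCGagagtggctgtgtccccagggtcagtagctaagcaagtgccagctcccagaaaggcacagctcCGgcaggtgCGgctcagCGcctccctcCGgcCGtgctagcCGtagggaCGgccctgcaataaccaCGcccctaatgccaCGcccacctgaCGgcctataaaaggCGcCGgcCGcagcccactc
Cdkn2b, chr4:89311033-89311282, minus strand: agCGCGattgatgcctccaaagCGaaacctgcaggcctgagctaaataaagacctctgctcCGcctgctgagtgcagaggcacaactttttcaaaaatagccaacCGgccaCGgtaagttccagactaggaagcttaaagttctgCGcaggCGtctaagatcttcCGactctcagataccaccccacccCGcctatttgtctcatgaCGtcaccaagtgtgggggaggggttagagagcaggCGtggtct
Actc1, chr2:114052876-114053125, minus strand: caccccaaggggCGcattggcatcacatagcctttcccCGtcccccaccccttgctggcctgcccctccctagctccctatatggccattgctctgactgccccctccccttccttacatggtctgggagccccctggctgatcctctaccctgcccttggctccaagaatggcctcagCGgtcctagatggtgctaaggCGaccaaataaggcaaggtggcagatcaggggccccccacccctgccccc
The 4 stretches hold 27, 16, 12 and 4 CG pairs in that order. Over windows of 300 bases (250 before to 50 after the start), a promoter was counted as CpG-rich at a GC content of at least 50% and an observed over expected CpG ratio of at least 0.6. RefSeq windows were matched for 11074 of the genes tested, of which 64.6% were CpG-rich. Where a gene had several listed starts, only the first was used. Of the 23 genes called higher, 19 matched and 8 of these were CpG-rich (42.1%), with a median of 15 CG pairs against 20 over all matched genes. Some lay near the ratio limit: Meis1 (0.59) and Tex19.1 (0.58) under it, and Tfcp2l1 (0.66) and Meis2 (0.67) over it. The STAT-type motif TTCNNNGAA, whose reverse complement is itself, occurred in 2 of the 19 windows, those of Amot and Emp1, and in 6.72% of all windows. These counts are descriptions of the sequence, and no difference between them was tested.

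Zic1, Meis1, Meis2 and Epas1 are transcription factors of development or of the hypoxia response that were called higher. Zic1 read 43.3, 57.4, 27.2 and 11.6 in wild type and 227.2, 475.9, 117.5 and 130.4 in the Ezh2-null arrays. All 4 Ezh2-null arrays lay above every wild-type array, and Zic1 rose by 1.88 ± 0.16 (limma adjusted p = 5.56e-11), the largest rise of the 23. Its promoter, shown above, holds 27 CG pairs, while the same stretch of Prickle1, a gene called lower, holds 34. Meis1, a homeobox cofactor of Hox proteins, read 10.5, 11.3, 7.5 and 2.9 in wild type and 93.0, 132.8, 35.8 and 50.5 in the Ezh2-null arrays. It rose by 1.38 ± 0.14 (adjusted p = 4.01e-08), and its groups did not overlap. Its paralogue Meis2 rose by 1.13 ± 0.16 (adjusted p = 1.95e-05), from 79.7 to 136.9 in wild type to 207.1 to 357.4. Epas1, the hypoxia-regulated factor HIF-2 alpha, rose by 1.11 ± 0.18 (adjusted p = 7.76e-05) and was higher in every Ezh2-null array. With all probe sets of each gene averaged, the differences of Meis1 and Epas1 were 0.48 and 0.71, so both ended under 2-fold.

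Tfcp2l1, a transcription factor downstream of Stat3 in naive cells, read 195.0, 170.5, 193.8 and 199.5 in wild type and 463.4, 334.8, 570.1 and 564.4 in the Ezh2-null arrays. The groups did not overlap, and the gene rose by 1.19 ± 0.23 (limma adjusted p = 0.000749), with 0.99 in the first set and 1.39 in the second. The mean of all its probe sets differed by 0.33, under 2-fold but past the adjusted p. Its other probe sets had low means, of 16 and 4.3 in wild type and 12.5 and 1.7 in Ezh2-null cells. Cdkn2b, which blocks Cdk4 and Cdk6, read 56.2, 67.4, 62.0 and 59.0 in wild type and 190.4, 207.0, 162.9 and 175.9 in the Ezh2-null arrays. It rose by 1.21 ± 0.20 (adjusted p = 0.000125) with little spread inside either group. Its neighbour Cdkn2a, a known Polycomb-regulated inhibitor of the cell cycle, was at 10.0 to 20.3 in wild type and 30.0 to 74.1 in the Ezh2-null arrays, and rose by 0.82 ± 0.20 (adjusted p = 0.00735) at a low signal. Without wild-type replicate 1, the adjusted p of Cdkn2a was 0.0505.

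Muscle and contractile genes formed another group. Mylpf, a light chain of fast skeletal myosin, read 75.9, 72.6, 92.5 and 99.9 in wild type and 162.1, 157.2, 766.4 and 721.2 in the Ezh2-null arrays, and rose by 1.72 ± 0.28 (limma adjusted p = 8.57e-05), by 0.85 in the first set and 2.60 in the second. Its mean signal at day 0 was higher, 810.5 for wild type and 792.6 for the mutant. The day 2 difference of Mylpf was thus a smaller fall from day 0, not a gain over it. Actc1 read 201.4, 224.7, 187.2 and 184.5 in wild type and 512.3, 545.1, 465.8 and 568.2 in the Ezh2-null arrays, and rose by 1.26 ± 0.27 (adjusted p = 0.00275). Acta2, smooth muscle actin, rose by 1.15 ± 0.33 (adjusted p = 0.0268), but its other 2 probe sets differed by 0.18 and 0.14 and the mean of the 3 by 0.49, under 2-fold. Mylpf and Actc1 did not overlap between groups, while Acta2 depended on every array: its adjusted p was 0.0537 to 0.106 without any 1 of the 8. In the list of cardiac and muscle genes, 5 of 16 rose and 0 fell, beside 3.69% and 2.94% of all genes, with Tbx20 (0.59 ± 0.11), a heart transcription factor, and Isl1 (0.56 ± 0.16), a factor of heart progenitors, as the others. Isl1 did not pass without wild-type replicates 1 or 3 or Ezh2-null replicates 2, 3 or 4, each left out singly (adjusted p 0.056 to 0.155). The median of the list was 0.15, beside 0.02 over all genes.

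Fibroblast markers were measured in the same arrays, because feeder cells also express Acta2. Of 23 markers tested, 0 rose and 1 fell, beside 3.69% and 2.94% of all genes. Above 0 were 18 of the markers, beside 7720 of all 13807 genes, and their median was 0.18, beside 0.02 over all genes. The one that fell was Mmp2, a matrix protease, by 0.53 on the log2 scale (limma adjusted p = 0.0136), and it did not pass without wild-type replicate 2, Ezh2-null replicate 1 or Ezh2-null replicate 3 (0.0569 to 0.0856). Their summed signal was 3190.5, 3595.3, 5913.2 and 5761.1 in wild-type replicates 1 to 4 and 4261.8, 4352.7, 6781.4 and 7480.4 in Ezh2-null replicates 1 to 4. The sum was thus higher in the second set of both groups and higher in Ezh2-null cells within each set. Fibroblast-defining Postn, a matrix protein, was at 2.2 to 9.0 in wild type and 3.1 to 17.6 in the Ezh2-null arrays. The part of fibroblast RNA in the rise of Acta2 was not tested.

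Of the other genes called higher, Mfsd12, a lysosomal and melanosomal transporter, read 116.0, 127.9, 124.1 and 118.0 in wild type and 476.1, 393.6, 292.4 and 342.5 in the Ezh2-null arrays, and rose by 1.39 ± 0.11 (limma adjusted p = 5.56e-11). Slc40a1, the iron exporter ferroportin, rose by 1.34 ± 0.22 (adjusted p = 8.57e-05), from 265.7 to 369.1 in wild type to 586.3 to 1253.2. Cd99, a cell surface glycoprotein, rose by 1.36 ± 0.23 (adjusted p = 0.000143), from 122.2 to 338.9 to 510.5 to 696.3. None of these groups overlapped. Emp1, a small epithelial membrane protein (1.26 ± 0.22), and Tspan9, a tetraspanin (1.23 ± 0.16), also rose without overlap. F3, tissue factor, rose by 1.05 ± 0.32 (adjusted p = 0.0397), and its adjusted p was 0.0524 to 0.169 without any 1 of the 8 arrays. Emp1 and Tspan9 fell under 2-fold as the mean of all their probe sets (0.68 and 0.93). Their other probe sets had low means, of 9.75 and 17.1 in wild type and 12.2 and 47.3 in Ezh2-null cells.

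The remaining called genes have varied roles. Klhl13, an adaptor of a ubiquitin ligase, read 1776.2, 1917.5, 1144.1 and 1158.0 in wild type and 3270.3, 3340.9, 3867.5 and 3804.6 in the Ezh2-null arrays, and rose by 1.27 ± 0.18 (limma adjusted p = 1.21e-05). Amot, a Hippo pathway scaffold, rose by 1.27 ± 0.18, with overlapping groups and 0.63 as the mean of its probe sets. Its other probe sets differed by 0.10 and 0.51, with wild-type means of 299.5 and 89.15. Stard8 rose by 1.15 ± 0.16 without overlap. Calcoco2, an autophagy receptor, read 116.5, 155.7, 76.4 and 66.0 in wild type and 150.1, 180.0, 561.9 and 539.7 in the Ezh2-null arrays. Its rise of 1.37 ± 0.27 (adjusted p = 0.00095) was 0.23 in the first set and 2.50 in the second. The zinc-finger genes Zfp229 (1.11 ± 0.18), Rex2 (1.02 ± 0.21) and Zfp607b (1.79 ± 0.56) were the last; these genes have close relatives in the genome, so their probe sets may read more than 1 of them. Zfp607b rested on 1 array: it read 9102.5 in Ezh2-null replicate 2 and 69.9 to 111.6 in the other Ezh2-null arrays, and differed by 0.17 (adjusted p = 0.819) without it. Zfp607b also failed without any of the others except Ezh2-null replicate 1 (0.0753 to 0.137). Rex2 was under 2-fold without wild-type replicate 4 or Ezh2-null replicates 1 or 3 (0.96 to 1.00), and in the quantile-normalised and centred arrays, and Zfp229 was under 2-fold without wild-type replicate 4 (0.93). Epas1, F3 and Rex2, with the 3 smallest differences of the 23, are named after their values were seen, because no others remained.

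The 3 genes called lower were Ezh2, Eif2s3y and Prickle1. Prickle1, a planar cell polarity protein, read 187.1, 222.5, 125.7 and 115.9 in wild type and 60.1, 91.2, 18.2 and 27.7 in the Ezh2-null arrays. It was lower in every Ezh2-null array and fell by 1.31 on the log2 scale (SE 0.15; limma adjusted p = 1.19e-07), but its other 2 probe sets differed by -0.04 and -0.13. Eif2s3y differed by -1.33 ± 0.34 over both sets (adjusted p = 0.0104; 0.0524 and not called with the replicate number as a block), by 0.16 in the first set and by -2.83 in the second, which is the set of the 2 arrays with low Y-linked signal.

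**Figure D1:**
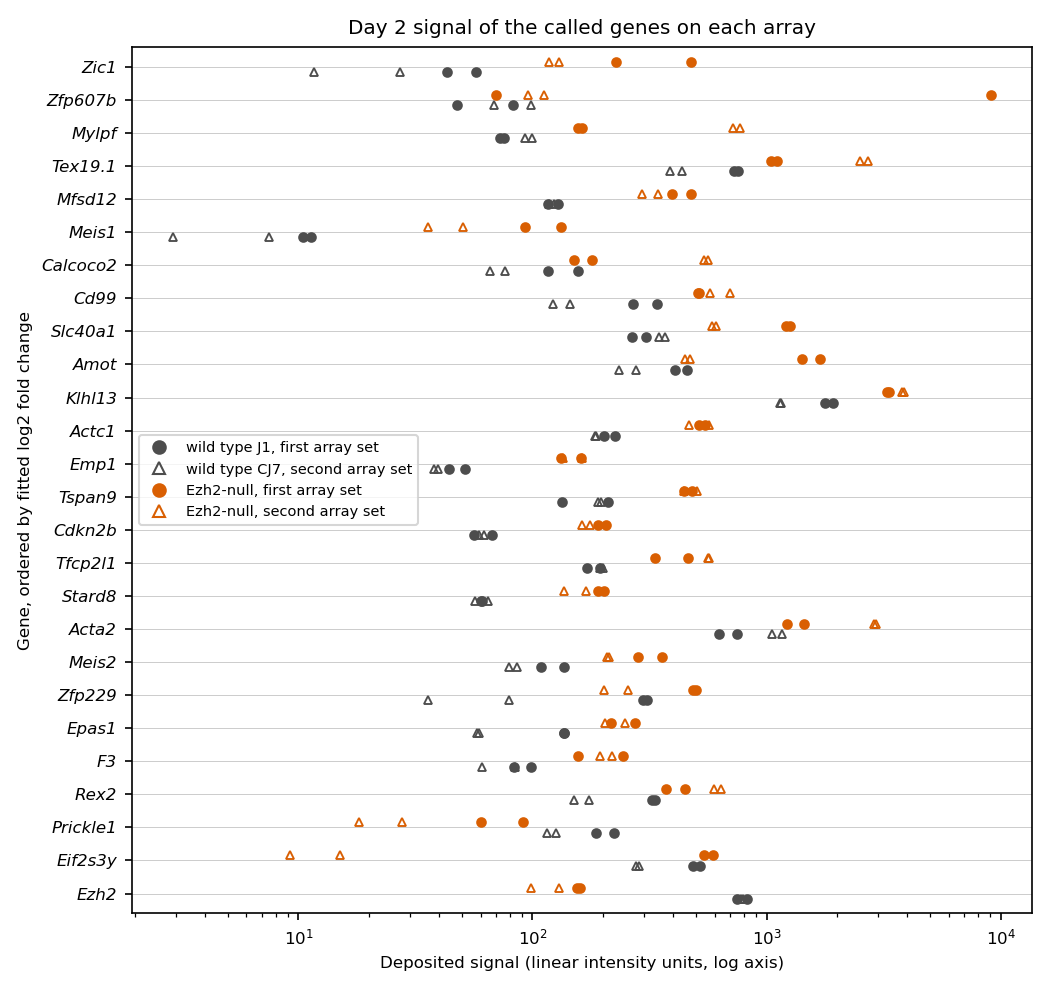
Deposited signal (log axis) of the 26 genes called at day 2, ordered by their fitted difference, with 1 point for each of the 8 arrays: grey for wild type, orange for Ezh2-null, filled circles for the first array set and open triangles for the second. Zic1, Mfsd12 and Cdkn2b have every orange point to the right of every grey one, Zfp607b has 1 orange point at 9102.5, and Eif2s3y has its orange triangles at 15 and 9.2.

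Genes of the naive pluripotent state, which decline when LIF is removed, were higher in Ezh2-null cells. All 25 tested were above 0, beside 7720 of all 13807 genes, with a median of 0.54 beside 0.02 over all genes. Of the 25, 8 rose and 0 fell, beside 3.69% and 2.94% of all genes. The groups did not overlap for 10 of the 25, beside 2.74% of all genes. Tbx3, a T-box factor of naive cells, read 192.2, 181.8, 145.9 and 160.1 in wild type and 337.1, 309.0, 334.0 and 421.6 in the Ezh2-null arrays, and rose by 0.92 ± 0.21 (limma adjusted p = 0.0039). Nr5a2, a nuclear receptor that binds the Pou5f1 gene, rose by 0.90 ± 0.21 (adjusted p = 0.00574), and Prdm14, a repressor of FGF signalling and DNA methylation, by 0.74 ± 0.17 (0.00428). Nr5a2 was at 138.5 to 240.1 in wild type and 261.1 to 458.2 in the Ezh2-null arrays, without overlap, while Prdm14 overlapped between sets.

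Tcl1, an Akt coactivator (0.75 ± 0.20), Klf4, a zinc-finger factor (0.62 ± 0.18), Dppa2, a chromatin factor (0.83 ± 0.24), and Pecam1, an adhesion protein of naive cells (0.36 ± 0.10), were the others that rose, beside Tfcp2l1; these 4 are named after their values were seen. Pecam1 differed by -0.02 in the first set, where its direction turned. Dppa2 read 1013.3, 1025.0, 531.0 and 520.2 in wild type and 1328.1, 1239.6, 1352.6 and 1402.5 in the Ezh2-null arrays. Klf4 read 195.8, 167.7, 116.8 and 109.3 in wild type and 259.2, 220.0, 245.1 and 232.9 in the Ezh2-null arrays, with no overlap. Esrrb, an orphan nuclear receptor, differed by 0.80 ± 0.27 and Klf2 by 0.69 ± 0.23, and neither passed (limma adjusted p = 0.0631 and 0.0604). Within the first set 1 of the 25 rose, beside 1.83% of all genes, with a median of 0.33. Within the second 8 rose, beside 3.54% of all genes, with a median of 0.67. In both sets 22 of the 25 were above 0, beside 4311 of all 13807 genes. Without the array set as a term, Tfcp2l1 passed and the other 7 did not. Leaving out single arrays, Dppa2 did not pass in any case (adjusted p 0.0623 to 0.0856), nor Pecam1 in any but that of Ezh2-null replicate 2 (0.0662 to 0.144). The same was seen for Klf4 without wild-type replicates 2, 3 or 4 or Ezh2-null replicates 1, 3 or 4 (0.0521 to 0.0995), Tcl1 without wild-type replicate 2 or Ezh2-null replicate 1 (0.0848 and 0.14), Prdm14 without Ezh2-null replicate 1 (0.071) and Nr5a2 without wild-type replicate 4 (0.0566).

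Of 10 core pluripotency genes, 0 rose and 0 fell by limma, with a median of 0.18. Nanog, the homeobox factor of pluripotent cells, read 1825.5, 1893.2, 1625.4 and 1572.0 in wild type and 3070.5, 3195.7, 2507.2 and 2323.8 in the Ezh2-null arrays. All 4 Ezh2-null arrays were above every wild-type array, but the difference of 0.66 ± 0.24 did not pass the adjusted test (0.0885). This SE draws on all 53 arrays, among them those of Ezh2-null day 6, where Nanog ran from 222.8 to 1536.6. Sox2 differed by 0.47 ± 0.25 (adjusted p = 0.323). Pou5f1, which encodes Oct4, read 3249.6, 3245.6, 3708.6 and 4026.4 in wild type and 3314.6, 3294.7, 3745.9 and 4039.2 in the Ezh2-null arrays, a difference of 0.02 ± 0.21 (0.98). Its signal in these 8 arrays shows that transcripts of the labelled cell type were present in both groups on day 2.

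Of 12 LIF signalling genes, 5 rose and 1 fell, beside 3.69% and 2.94% of all genes. Lifr, a LIF receptor chain, read 255.2, 253.3, 115.0 and 85.3 in wild type and 443.1, 396.1, 181.0 and 197.8 in the Ezh2-null arrays, and rose by 0.70 ± 0.12 (limma adjusted p = 0.000127). Il6st, the shared receptor chain gp130, read 290.8, 327.7, 186.9 and 192.3 in wild type and 536.5, 630.5, 275.5 and 260.9 in the Ezh2-null arrays, and rose by 0.64 ± 0.10 (4.84e-05). Both receptor chains were higher in each Ezh2-null pair than in the wild-type pair of the same set, and overlapped across sets. The Janus kinases Jak1 (0.45 ± 0.10) and Jak2 (0.41 ± 0.08) rose too, as did the kinase Pim3 (0.39), named after its values were seen, and Junb, an AP-1 subunit, fell by 0.54 on the log2 scale (0.00915), with -0.09 in the first set and -0.99 in the second. Without Ezh2-null replicate 1 the adjusted p of Junb was 0.0598. Without the array set as a term Lifr, Il6st, Jak1, Jak2 and Junb did not pass. Socs3 and Stat3, the feedback inhibitor and the transcription factor of the pathway, did not pass.

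**Figure D2:**
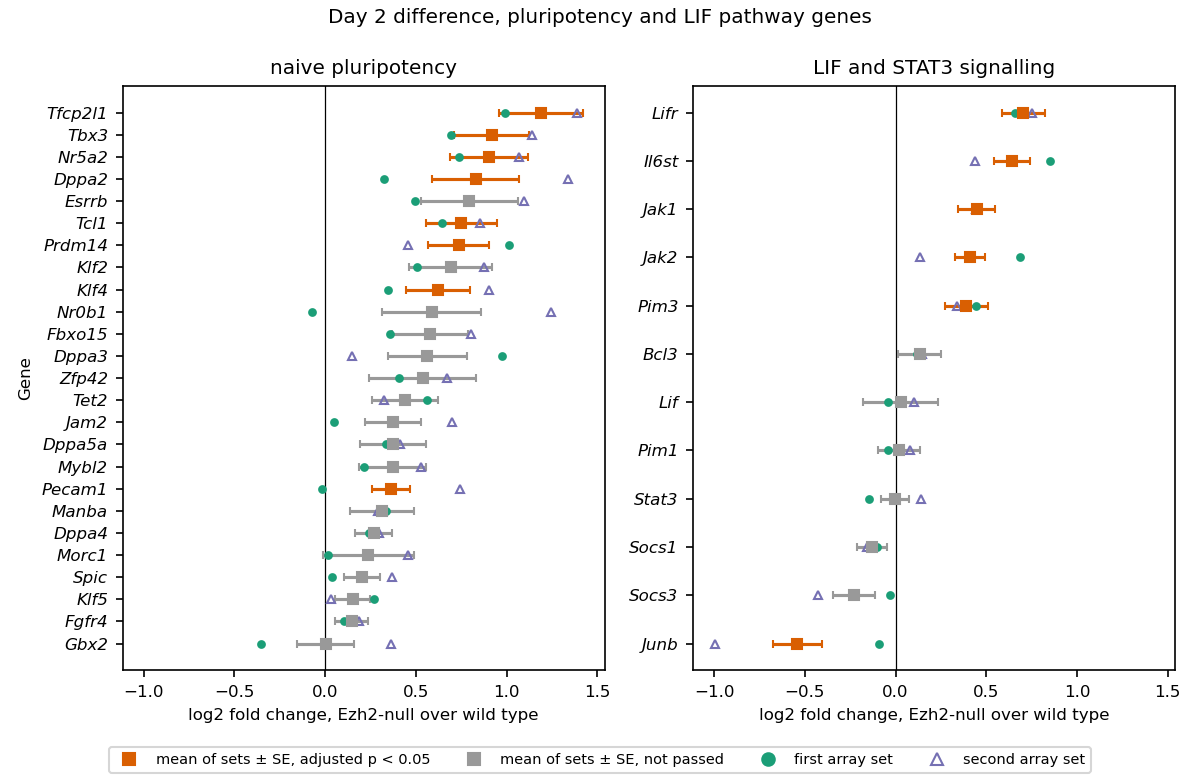
Day 2 difference (Ezh2-null minus wild type, log2 of signal plus 32) of the 25 naive pluripotency genes and the 12 LIF and STAT3 genes; squares are the mean of both array sets with the SE as bars, orange where the adjusted p was under 0.05, and circles and triangles are the first and second sets. All 25 naive squares lie above 0, 8 of them orange, and 5 LIF pathway squares are orange above 0 and Junb below it.

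Primed epiblast genes become active as cells leave the naive state, a step that FGF signalling drives. Of 16 primed genes, 2 rose and 3 fell, beside 3.69% and 2.94% of all genes, with a median of -0.19. Zic5, a neural and epiblast factor, fell by 0.58 on the log2 scale (SE 0.12; limma adjusted p = 0.00147), Sox3, a relative of Sox2 in neuroectoderm, by 0.45 (SE 0.11; 0.00563) and Zic2, a Zic5 neighbour, by 0.44 (SE 0.13; 0.0351). Sox3 read 196.3, 205.9, 182.6 and 176.1 in wild type and 147.7, 173.5, 110.7 and 101.5 in the Ezh2-null arrays, with no overlap. Grhl2, an epithelial factor, rose by 0.43 and Lef1, a Wnt effector, by 0.57. Grhl2 did not pass without wild-type replicates 1 or 4 or Ezh2-null replicates 1 or 4 (adjusted p 0.0663 to 0.0961), nor Lef1 without any single array except Ezh2-null replicate 2 (0.0583 to 0.177). Of 20 FGF and ERK genes, 0 rose and 3 fell, among them the ERK targets Egr1 (387.7, 396.5, 195.5 and 226.6 in wild type and 145.9, 262.3, 113.3 and 101.4 in the Ezh2-null arrays) and Dusp4, a phosphatase, with differences of -0.85 ± 0.20 and -0.86 ± 0.23. Egr1 was lower within each set, Dusp4 was -0.25 in the first set and -1.48 in the second, and the third, Fgfr1, an FGF receptor, differed by -0.31. Egr1 did not pass without Ezh2-null replicate 1 (adjusted p = 0.0744). Dusp4 failed without wild-type replicates 2 or 4 or Ezh2-null replicates 1 or 3 (0.0518 to 0.0819) and Fgfr1 without wild-type replicates 2, 3 or 4 or Ezh2-null replicates 1 or 4 (0.0529 to 0.176).

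Polycomb repressive complex 1 (PRC1), which ubiquitinates histone H2A and can bind the PRC2 mark, had 3 genes that rose and 3 that fell of 18, beside 3.69% and 2.94% of all genes. Bmi1, a Pcgf subunit, read 165.2, 209.4, 66.4 and 76.2 in wild type and 268.7, 450.4, 208.7 and 200.2 in the Ezh2-null arrays, and rose by 1.00 ± 0.16 (limma adjusted p = 7.68e-05). Its paralogue Pcgf5 rose by 0.74 ± 0.10 (adjusted p = 9.21e-06). Yaf2, an adaptor of variant PRC1, differed by -0.39 and did not pass without wild-type replicates 1 or 3 or Ezh2-null replicate 1 (0.0644 to 0.116), and Pcgf2, the closest relative of Bmi1, differed by -0.37 and passed only without wild-type replicate 4 of the 8 single-array omissions (0.0541 to 0.0754 in the others).

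Germline genes, many of them kept silent by promoter methylation or Polycomb in somatic and ES cells, had 5 of 19 that rose and 0 that fell, beside 3.69% and 2.94% of all genes. Their median was 0.36, and 18 were above 0, beside 7720 of all 13807 genes. Within the first set 2 rose, with a median of 0.15, and within the second 8 rose, with a median of 0.45, beside 1.83% and 3.54% of all genes. Tex19.1, a germ-cell and placental protein, read 753.7, 724.7, 387.1 and 434.9 in wild type and 1111.4, 1042.8, 2715.4 and 2506.5 in the Ezh2-null arrays, and rose by 1.55 ± 0.24 (limma adjusted p = 5.22e-05), by 0.52 in the first set and 2.58 in the second. Mael, a piRNA pathway protein, read 270.1, 273.3, 115.1 and 128.2 in wild type and 542.5, 513.2, 289.7 and 266.7 in the Ezh2-null arrays, and rose by 0.95 ± 0.15 (6.52e-05). Dazl, a germ-cell RNA-binding protein, rose by 0.84 ± 0.11 (4.84e-06) and Hormad1, a meiotic chromosome protein, by 0.74 ± 0.12 (0.000114). Mael and Dazl were higher within each set and overlapped across sets. RefSeq windows were matched for 15 of the 19, and 12 of these were CpG-rich (80.0%). Of 13 DNA methylation genes 2 rose: Dnmt3l, a cofactor of the de novo methyltransferases, by 0.96 ± 0.24 (0.0108), and Zfp57, a protector of imprints, by 0.52. Dnmt3l differed by 0.28 in the first set and 1.64 in the second and had adjusted p of 0.05 and 0.051 without wild-type replicate 1 and Ezh2-null replicate 2. Zfp57 passed in none of the 8 fits that leave out 1 array (0.0649 to 0.143), nor after quantile normalisation or centring (0.0541 and 0.056).

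Of 35 other developmental transcription factors, 8 rose and 0 fell, beside 3.69% and 2.94% of all genes, with a median of 0.13. Besides Meis1 and Meis2, the smallest p were those of Tbx4 (0.70 ± 0.12), a limb factor, and Nr2f2 (0.61 ± 0.14), a venous and mesenchymal nuclear receptor. Nr2f2 was at 16.1 to 20.9 in wild type and 34.5 to 57.6 in the Ezh2-null arrays, while Tbx4 differed by 0.04 in the first set and 1.37 in the second. Of 24 Hox genes tested, 2 rose, Hoxc13 by 0.54 and Hoxa3 by 0.49, both patterning factors. Both failed without Ezh2-null replicates 2 or 4, and Hoxc13 without wild-type replicate 4 and Hoxa3 without wild-type replicate 3 (limma adjusted p 0.0587 to 0.114). Of 15 trophoblast genes, 4 rose: the transcription factors Tfap2a (0.71 ± 0.13), Gata3 (0.62 ± 0.15) and Tfap2c (0.73 ± 0.20) and the keratin Krt7 (0.73 ± 0.20). Tfap2a read 44.9, 34.9, 42.3 and 42.1 in wild type and 77.6, 78.7, 109.3 and 87.1 in the Ezh2-null arrays. Tfap2c did not pass without wild-type replicates 1 or 4 or Ezh2-null replicates 1 or 3 (0.0668 to 0.14), nor Krt7 without any but wild-type replicate 3 or Ezh2-null replicate 4 (0.0566 to 0.0868).

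In the endoderm, neural, streak and blood lists the share that passed was near that of all genes (3.69% rose and 2.94% fell). Of 27 endoderm genes 1 rose, Foxa1, a pioneer factor (0.66), and of 21 neural genes Zic1 rose and Sox11, a neuronal factor, fell by 0.42 on the log2 scale. Of 23 primitive streak and mesoderm genes 1 rose, Evx1, a posterior streak factor (0.50), which was higher in Ezh2-null replicate 2 than in the rest and had an adjusted p of 0.351 by limma without it. Evx1 also failed without wild-type replicates 1, 3 or 4 or Ezh2-null replicates 3 or 4 (0.0712 to 0.238), and Sox11 failed without any single array except Ezh2-null replicate 2 (0.054 to 0.134). In the Nodal pathway, Smad7, an inhibitory Smad, read 704.4, 682.6, 601.2 and 606.5 in wild type and 1224.4, 1047.0, 1080.2 and 1022.1 in the Ezh2-null arrays, and rose by 0.73 ± 0.12 (adjusted p = 0.000121). Among imprinted genes, Peg3, a paternally expressed zinc-finger gene, rose by 0.83 ± 0.14 and Phlda2, a placental growth regulator, fell by 0.88 on the log2 scale (SE 0.21; 0.00611), with no overlap for either. Without wild-type replicate 1 the adjusted p of Phlda2 was 0.0521. In blood and endothelium 1 of 16 rose and 1 fell, Etv2, a blood and vessel factor, by 0.66 on the log2 scale. Beside these, 0 of 10 ribosomal protein genes, 0 of 18 glycolysis and hypoxia genes, 0 of 11 antigen presentation genes and 0 of 23 other histone modifiers passed by limma; at the same shares of all genes, lists of this size would hold few or none. At an unadjusted p under 0.05, 1510 of all genes were higher (10.9%) and 1097 lower (7.95%).

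**Figure D3:**
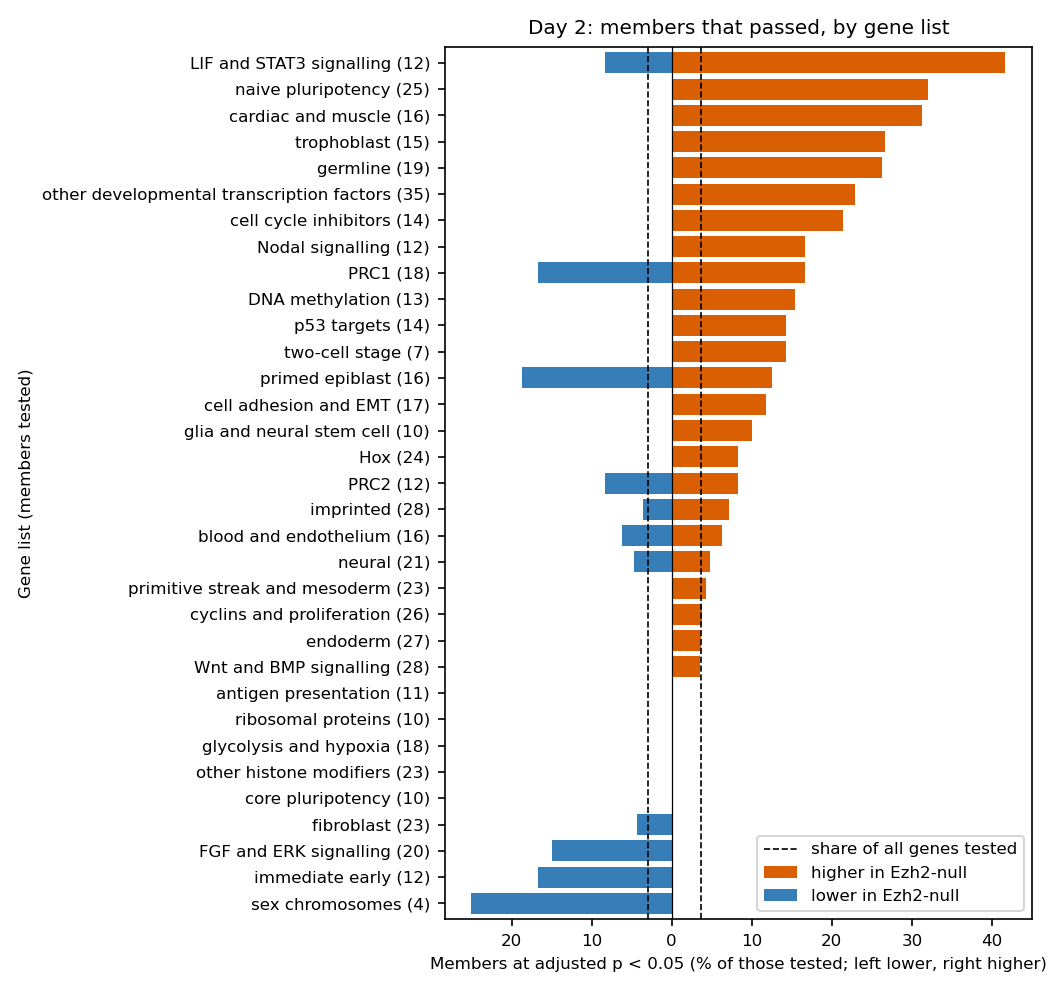
Share of the tested members of each gene list (number tested in brackets) that rose, to the right, or fell, to the left, at day 2, in percent, with dashed lines at the shares of all genes (3.69% and 2.94%). The LIF list (5 of 12), the naive list (8 of 25) and the muscle list (5 of 16) reach farthest right, and core pluripotency and ribosomal protein genes have no bar.

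The difference between Ezh2-null and wild-type cells was not the same in both array sets. Separately, the first set gave 56 called genes (0.406%) and the second 122 (0.884%), and the difference between the sets passed with a 2-fold change in 172 genes (1.25%), 83 higher and 89 lower in the second. Fgf8, an FGF ligand of the streak, read 168.0, 169.1, 325.7 and 342.0 in wild type and 392.2, 520.4, 132.6 and 107.1 in the Ezh2-null arrays. It was higher in Ezh2-null cells in the first set (1.27) and lower in the second (-1.27), a difference between sets of -2.54 ± 0.32 (limma adjusted p = 5.81e-06). Dsp, a desmosome protein, did the same (1.47 and -1.04). The interferon-induced GTPases Gbp2b (1.04 and -1.33) and Gbp2 (1.02 and -1.34) differed likewise. Rhox5, an X-linked homeobox gene, read 567.2, 425.9, 333.2 and 353.7 in wild type and 370.5, 318.9, 1673.4 and 1592.9 in the Ezh2-null arrays, 2.63 ± 0.70 higher in the second set (adjusted p = 0.0276). Rpl39l, a ribosomal protein paralogue, and 1700007K13Rik, an uncharacterised gene, also differed upward, by 2.30 ± 0.47 and 2.36 ± 0.31. Tex19.1 (2.05), Calcoco2 (2.26), Rex2 (1.46) and Eif2s3y (-2.99) were the called genes of day 2 that differed between the sets.

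**Figure D4:**
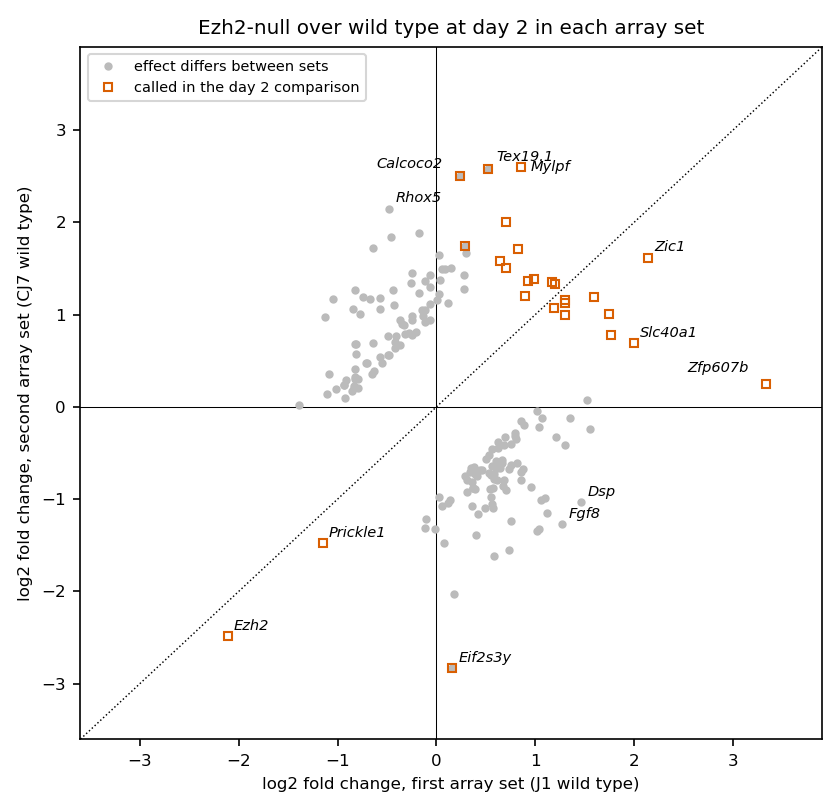
Difference between Ezh2-null and wild type in the first array set (x axis) against the second (y axis), on log2 of signal plus 32, for the 172 genes whose difference changed between the sets (grey points) and the 26 genes called at day 2 (orange squares), with the dotted line where both are equal. Zic1 lies near the diagonal (2.14 and 1.62), while Fgf8 (1.27 and -1.27) and Eif2s3y (0.16 and -2.83) lie off it.

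The day 2 difference was set against the day 0 difference, in cells kept with LIF. Of the 23 genes called higher at day 2, 15 rose at day 0, beside 10.6% of all genes, and 3 were called higher there, beside 0.362%, with J1 and CJ7 as day 0 wild type. Wild-type day 0 replicates 1 to 3 (J1 and CJ7) stood apart from replicates 4 (CJ7) and 5 to 7 (E14tg1). Eif2s3y read 104.8, 79.1 and 60.6 in the former and 528.0 to 578.5 in the latter, and Nnat 20.8 to 35.8 and 277.4 to 338.9. The cause was not tested. With wild-type replicates 4 to 7 of day 0 in place of J1 and CJ7, 5 rose, beside 2.77% of all genes, 1 fell, F3, and 1 was called higher, Cd99, beside 0.101%. Between these choices the day 0 difference of Acta2 went from 1.16 to -0.72, that of Actc1 from 0.77 to -0.47 and that of Amot from 0.76 to -0.27, so their direction at day 0 was not settled. At day 6, 13 of them were called higher, beside 1.73% of all genes; the days use different arrays. Naive genes had a median of 0.13 at day 0, with 3 that rose and 1 that fell (5.46% of all genes fell), or of 0.06 with 1 that rose and 1 that fell on wild-type replicates 4 to 7, and of 0.98 at day 6, with 12 called higher. From day 0 to day 2, 22 of the 25 naive genes fell in wild-type cells, with a median of -1.82 (22.9% of all genes fell), and 22 fell in the Ezh2-null cells, with a median of -1.27 (24.2% of all genes). The day 2 effect exceeded the day 0 effect in 1 of the 25 naive genes, the lysosomal enzyme gene Manba (1.00 ± 0.24, adjusted p = 0.00715 by limma), named after its values were seen, beside 2.80% of all genes. With replicates 4 to 7 it did so in 2, Tfcp2l1 (1.18, adjusted p = 0.0498) and Nr5a2 (1.10, 0.041), beside 1.56% of all genes. With the mean of J1 and CJ7 as day 0 wild type, 73 genes (0.529%) had an effect that changed between the days, 24 upward and 49 downward; using wild-type replicates 4 to 7 of day 0 gave 58, 56 upward and 2 downward, of which 7 were shared. Zic1 was among those in both: its difference was 0.60 at day 0 and 1.88 at day 2, an increase of 1.28 ± 0.21 (adjusted p = 0.000165). Mylpf (1.85 ± 0.38) and Tspan9 (1.14 ± 0.22) increased too, and did so with the other day 0 wild type (1.86 and 1.12). Mid1, a microtubule-associated ubiquitin ligase, was 3.12 higher with J1 and CJ7 but 0.28 with replicates 4 to 7 of day 0, so this result rested on the wild-type arrays chosen.

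By day 6 the difference between Ezh2-null and wild type had changed in 192 genes (1.39%), 87 upward and 105 downward by limma. Of the 23 primitive streak and mesoderm genes, 15 had a lower effect at day 6 than at day 2, beside 8.01% of all genes, and of these 15 only Evx1 had passed at day 2. Mixl1, a streak homeobox factor, was at 50.9 to 79.6 in wild type and 24.2 to 115.4 in the Ezh2-null arrays at day 2, and at 283.0 to 1914.4 and 42.3 to 59.8 at day 6, so its groups overlapped at day 2 and not at day 6. The change was -3.08 ± 0.19 (adjusted p = 6.54e-15). Eomes, a T-box factor of streak and endoderm, changed by -2.97 ± 0.25 and Aplnr, a receptor of mesoderm, by -3.64 ± 0.16. Aplnr was at 14 to 18 in wild type and 13.7 to 18.9 in the Ezh2-null arrays at day 2. Cdkn2b and Cdkn2a went the other way: their differences of 1.21 and 0.82 at day 2 were 2.50 and 2.66 at day 6, an increase of 1.29 ± 0.28 (0.00101) and 1.84 ± 0.27 (5.22e-06). Zic1 also increased, by 1.42 ± 0.21, while Actc1 (1.26 at day 2 and -0.67 at day 6) and Stard8 (1.15 and -0.80) changed sign.

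**Figure D5:**
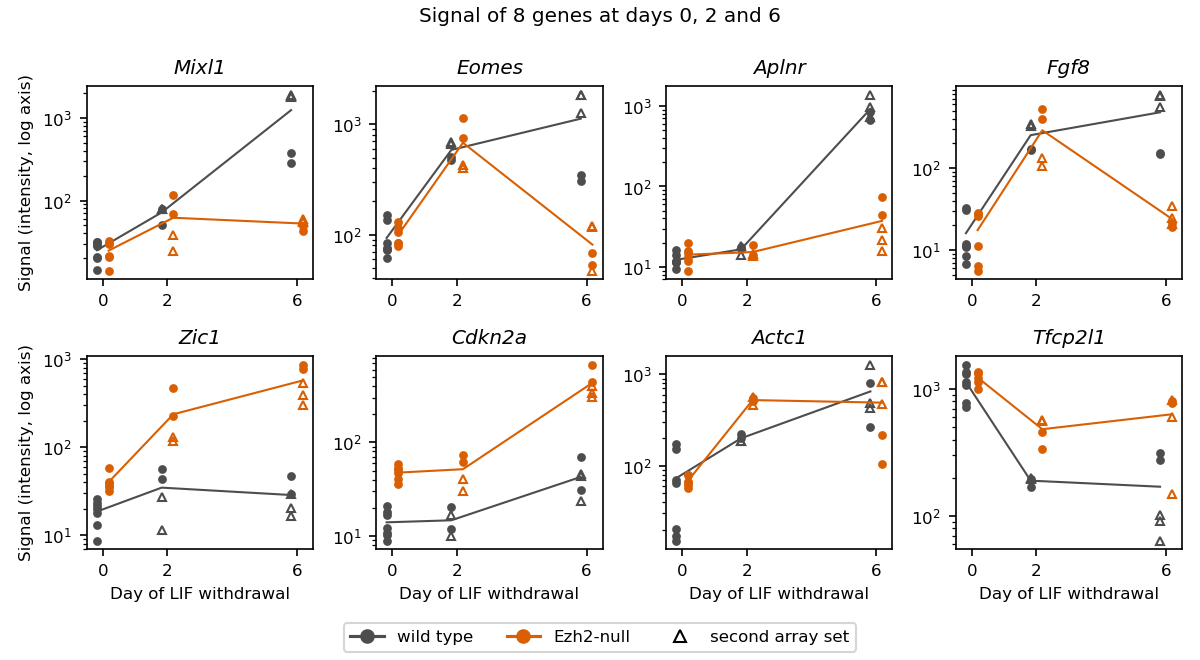
Signal (log axis) of 8 genes at days 0, 2 and 6 of LIF withdrawal, each point 1 array, grey for wild type and orange for Ezh2-null, with lines through the group means and triangles for the second array set. The groups of Zic1 and Cdkn2a are apart at day 2 and farther apart at day 6, while those of Mixl1, Eomes, Aplnr and Fgf8 overlap at day 2 and not at day 6.

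Eed-null cells, which lack another core subunit of PRC2, allowed a direct comparison of the mutants in the second array set, with Ezh2-null replicates 3 and 4 against Eed-null replicates 1 and 2. These Eed-null arrays were placed in that set by their signals, not by a label. A score from differences between probe sets of the same gene read 33.48 and 32.08 in them. It read 30.98 to 34.41 in the second-set wild-type and Ezh2-null arrays of day 2 and -13.28 to -6.754 in the first-set ones. There were 86 called genes (0.623%), 52 higher and 34 lower in Ezh2-null cells. Against wild-type CJ7, 12 of the 23 genes called higher above were also called higher in Eed-null cells, beside 98 of all 13807. Naive genes had a median of 0.54 there, with 7 of 25 that rose and 0 that fell. Germline genes had 0.88, with 11 of 19 that rose and 0 that fell, while 696 of all genes rose and 728 fell. The same CJ7 arrays serve both mutants, so these values are not independent of the Ezh2-null ones. Actc1 read 465.8 and 568.2 in Ezh2-null and 34.4 and 59.5 in Eed-null cells, a difference of 2.81 ± 0.39 (limma adjusted p = 3.87e-06), and wild-type CJ7 read 187.2 and 184.5. Acta1, skeletal actin, was 2.74 ± 0.45 higher and Krt19, a simple epithelial keratin, 1.73 ± 0.34 higher, though for Krt19 the Ezh2-null signal (591.7 and 604.6) was below wild type (966.4 and 906.5). Tfcp2l1 was 1.32 ± 0.32 higher in Ezh2-null cells (0.0106), with Eed-null arrays at 199.7 and 218.2, and Cdkn2b 1.01 ± 0.29 higher (0.032), with Eed-null arrays at 82.5 and 55.8.

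The meiosis genes Sycp1 and Tex15 had less signal in the Ezh2-null arrays than in the Eed-null ones: Sycp1, of the synaptonemal complex, by -1.63 ± 0.18 (limma adjusted p = 3.40e-08), and Tex15, a germ-cell protein, by -1.64 ± 0.20 (6.20e-07). Sycp1 read 58.1 and 66.0 in Ezh2-null, 254.8 and 262.0 in Eed-null and 44.2 and 30.9 in wild-type cells. Lefty2, a Nodal inhibitor, was lower too (-1.87 ± 0.40), at 324.5 and 220.8 in Ezh2-null and 1070.6 and 1058.6 in Eed-null cells. Ezh2 itself was lower by -2.69 and Eif2s3y by -3.26, as the Y-linked signal was low in these Ezh2-null arrays. Nod1, an innate immune sensor (-2.34), Ctse, an aspartic protease (-2.08), and Gm6958, an uncharacterised gene (-3.90), were the others with the largest falls, and Kbtbd11 (2.43), Trub1, a pseudouridine synthase (1.99), Fxyd6, a sodium pump regulator (1.99), Thg1l, a tRNA enzyme (1.82), and Serinc5, a membrane protein (1.76), the largest rises beside those above. For Zic1, the Ezh2-null arrays read 117.5 and 130.4 and the Eed-null arrays 146.1 and 165.4, a difference of -0.27 ± 0.22 that did not pass (0.617).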

How the data were processed

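The labels give Affymetrix arrays of 53 mouse samples. The authors deposited a table of probe-set values that are intensities on a linear scale (0.4 to 33985.898), with summarisation and scaling not given in the sources used here. Of 45037 probe sets, 34945 had 1 gene symbol, 932 several and 9160 none; 1 probe set per gene was kept, leaving 18193 genes, and 13807 passed a filter on low values. The log2 of the intensity plus 32 was fitted with limma 3.58.1 in R 4.3.3 over all 53 arrays (21 cell means, 32 residual degrees of freedom and 6.492 prior degrees of freedom). The members, lists and settings were chosen with earlier results of these data known. Genes were named if called (the 20 largest rises and falls), among the 4 smallest p in a list, or among 8 called in another contrast. Same-numbered arrays deviated together (correlations 0.651, 0.70, 0.566 and 0.621, each over 0.1), so the replicate number was also tried as a block. The highest correlations with another number were close (0.576, 0.614, 0.614 and 0.598, above its own for number 3), so the data do not single the numbers out. Deviations were taken from the mean of the 4 arrays of a group, so they hold the difference between the array sets. These correlations therefore cannot show that the numbers are pairs. The main fit has the array set as its block, and the replicate number is an alternative. On simulated data for the 13807 genes, 43 of 50 changes of 1.5-fold and 50 of 50 of 2-fold were recovered at the adjusted p alone, with 4 false calls. The 2-fold minimum was not applied, and the noise came from the fitted variances with the same effect in both array sets. The share of real 2-fold changes that were called cannot be read from it. Array counts limit the precision.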

Additional observations from a re-analysis of the deposited data

Results flagged for a closer look

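Of 188 groups of 4 arrays checked for a sample far from the others, 3 had one, and chance gives about 1 in 20. They were Evx1 in an Ezh2-null array at 109.8, Otx2 in a wild-type array at 746.9 and Zfp607b in an Ezh2-null array at 9102.5.

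The effect at day 2 differed from that at day 0 for Mid1 (3.12), Map1b (-2.92), Eif2s3y (-2.90), Hprt (-2.89), Gm20767 (2.84), Malat1 (-2.81), Usp17la (2.23), Mylpf (1.85), Prickle1 (-1.32), Tspan9 (1.14), Cd99 (-1.06) and Zic1 (1.28), all on the log2 scale by limma. Those of Hprt and Malat1 turn to 0.22 and 0.20 with the other day 0 wild-type arrays, and those of Mid1, Map1b and Cd99 to 0.28, -0.27 and -0.07. With those arrays Eif2s3y was -1.11 (adjusted p 0.102) and Prickle1 -0.76, under 2-fold, while Gm20767, Usp17la, Mylpf, Tspan9 and Zic1 were still called in the same direction. Gm20767 and Usp17la were called lower in Ezh2-null cells at day 0 with those arrays (-2.02 and -1.66). Neither was called at day 2. Usp17la belongs to a family of near-identical genes, so its probe set may read several of them.

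The effect at day 6 differed from that at day 2 for Hbb-bh1 (-3.91), Aplnr (-3.64), Mixl1 (-3.08), Eomes (-2.97), Fgf8 (-2.71), Lhx1 (-2.67), Igfbp3 (-2.49), Sema3c (2.38), Prickle1 (1.27), Stard8 (-1.95), Cdkn2b (1.29), Actc1 (-1.93), Amot (-1.76) and Zic1 (1.42). The effect differed between the array sets for Eif2s3y (-2.99), Rhox5 (2.63), Fgf8 (-2.54), Dsp (-2.50), Gbp2b (-2.36), 1700007K13Rik (2.36), Gbp2 (-2.36), Rpl39l (2.30), Rex2 (1.46), Calcoco2 (2.26) and Tex19.1 (2.05).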

How the results depend on the processing

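The count of 26 called genes was 24 to 28 after quantile normalisation, centring, other filters, a trend in the variance, array weights, and only the days 2 and 6 arrays or only the 8 arrays compared. It was 55 with a pseudocount of 8, 11 with one 4 times the main 32, 17 with the mean of all probe sets, 194 at 1.5-fold and 916 with no minimum fold, and 56 in the first set alone and 122 in the second. With the replicate number as a block it was 25 (792 at the adjusted p alone), a call being lost for Eif2s3y (adjusted p 0.0524); with no replicate block or array set it was 19 (177 at the adjusted p alone). Leaving out 1 array gave 22 to 30. At the adjusted p alone, the count of 916 was 1806 with array weights, 568 in the first set alone, 512 with only the 8 arrays compared and 487 to 684 leaving out 1 array (487 without wild-type replicate 1, 546 without wild-type replicate 4, 558, 593 and 562 without Ezh2-null replicates 1, 2 and 3). The first set gave 12 with the larger pseudocount, 30 with the mean of all probe sets, 306 at 1.5-fold, 568 with no minimum fold and 29 to 55 leaving out 1 array (29 without wild-type replicate 1). The second set gave 230 with the smaller and 38 with the larger, 484 at 1.5-fold and 852 with no minimum fold. The difference between sets gave 83 with the larger one. The day 2 minus day 0 effect gave 151 with the smaller, 23 with the larger and 26 with all 3 wild-type lines, the day 6 minus day 2 effect 292 and 84 in the same order, and Ezh2-null against Eed-null 167 and 32. In the first set alone Pecam1 was -0.018, Gadd45g -0.12 and Eif2s3y 0.16; with day 0 wild type from replicates 4 to 7, which were chosen after seeing the data, Hprt was 0.22 and Malat1 0.20. The causes were not tested. Among single genes, 425 values no longer passed, 179 of them on leaving out 1 array, 8 passed newly and 5 reversed. The number of arrays, and signals near background for low genes such as Meis1, limit the precision.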

Other observations

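Nnat and the Y-linked genes also separated Ezh2-null arrays at day 6. Nnat read 48.7, 57.0, 154.3, 4433.3 and 4973.4 in Ezh2-null replicates 1 to 5, and Eif2s3y 251.2 in replicate 3 and 14.8 and 12.9 in replicates 4 and 5.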
